A study of Mus musculus with 6 samples.

Results

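The matrix metalloproteinases (Mmp), the ADAMTS proteases (Adamts), the ADAMTS-like proteins (Adamtsl) and the tissue inhibitors of metalloproteinases (Timp) were examined in white fat from mice fed a high-fat diet. All gene symbols of these 4 families in the deposited table were taken, with 1 symbol left out, which gave 48 of 32759 genes: 20 Mmp, 19 Adamts, 5 Adamtsl and 4 Timp genes. The 6 RNA-seq samples formed 2 groups. The 3 HFD samples came from mice on the diet alone, and the 3 THBru samples from mice on the same diet given tetrahydroberberrubine (THBru), a small molecule tested against obesity, at 50 mg/kg/day. Strain, sex, age, fat depot, length of treatment and whether each sample was a separate animal are not given in the labels, so p-values here speak only to variation among these 6 libraries. The comparison asked which processes THBru alters in white fat.

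Mmp and ADAMTS enzymes are zinc proteases made as inactive precursors. Between them they cut collagens, gelatins, basement membrane proteins and proteoglycans, and TIMPs bind and block their active sites. Adipocytes enlarge inside a dense collagen cage, and obese fat remodels that matrix continuously, with stromal cells, macrophages, endothelial cells and adipocytes all contributing proteases and inhibitors.

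Total counts per library were 67195085 to 76995679, so the limit that a count of 0 allows (3 counts) was 0.039 to 0.0446 CPM (a count as parts per 1e6 of its library total). The 3 THBru libraries stood apart from the HFD libraries and from each other in transcripts of other organs. Seminal vesicle markers summed to 424127 CPM in THBru 1 against 529 to 631 in HFD, epididymal markers to 55605 CPM in THBru 3 against 62.1 to 72.1, and kidney markers to 1063 CPM in THBru 2 against 6.76 to 49.5. Mature adipocyte markers were present in all libraries, at 18635 to 32605 CPM in HFD against 4071, 21524 and 2269 CPM in THBru 1, 2 and 3. Progenitor and fibroblast markers were at 2133 to 3101 CPM in HFD against 754, 2254 and 883 CPM in THBru 1 to 3, and macrophage markers at 1979.8 to 5220.2 CPM and 393, 1151 and 257 CPM. On CPM of the total count, adipocyte and progenitor sums in THBru 2 thus lay within the HFD range, unlike those in THBru 1 and THBru 3. TMM factors set the bulk of genes level between libraries. After scaling by them, the progenitor sum in THBru 2 (1892) was below the lowest HFD sum (1977). The adipocyte sum in THBru 2 (18066) stayed within the HFD range (17246 to 31932).

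By mean level per transcript length in HFD fat, 3 of the 4 inhibitors came first. Timp2 stood at 108 ± 46.7 FPKM (fragments per kilobase of transcript, scaled to library size; SD, n = 3), Timp3 at 80.4 ± 25.1 and Timp4 at 53.7 ± 24.8. Mmp2 (35.7 ± 16.6 FPKM), Adamts1 (33.9 ± 16.5), Adamts5 (31.9 ± 6.14), Mmp19 (31.8 ± 5.21), Mmp28 (23.8 ± 5.49) and Adamts2 (20.4 ± 7.77) came next among proteases, and the first 4 of them did not differ beyond their spread. Timp4 and Mmp2 also overlapped, and in HFD 1 Timp4 (25.6 FPKM) was below Mmp2 (54.4 FPKM). Of the 48 members, 31 reached a mean of 0.5 FPKM over the 6 samples and were tested. The other 17 are described by their counts.

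No member passed the test between THBru and HFD. Of the 31 tested members, 0 had an edgeR adjusted p under 0.05, beside 0.118% of all 16140 genes tested. At an unadjusted p under 0.05, 9 members were lower (8.93% of all genes) and 1 was higher (13.9% of all genes). DESeq2 called 6 lower, beside 7.08% of all genes, namely Adamts1, Adamts2, Adamts5, Adamtsl4, Mmp3 and Mmp19, and 1 higher, beside 10.7%, Mmp7. Limma on log2(FPKM + 0.5) called 0 members (0.452% of all genes), and so did limma with a pseudocount of 0.1 (0.731%) or 1 (0.347%). With edgeR, 0 members passed on total counts without TMM (0.328% of all genes), with no filter on low values (0.0855%), with edgeR's own filter (0.13%), without THBru 1 (0.489%) or without THBru 3 (0.143%). Without THBru 2, 5 members were called lower, beside 4.56% of all genes called lower and 9.62% called in either direction. The median log2 fold change was −0.97 over the tested members and 0.08 over all genes, and 27 of 31 fold changes were negative beside 45.6% of all genes. On the scale of CPM with TMM factors (a scaling that sets the bulk of genes level between libraries), 12 members had all 3 THBru libraries below the lowest HFD library (15.1% of all genes), and 1 member, Mmp7, had all 3 above the highest (16.7%). Unless TMM is named, CPM is per total count. On that scale these numbers were 8 (12.6% of all genes) and 0 (10.4%). In bulk tissue, fewer cells of a type and less RNA per cell cannot be told apart. In THBru 1, 2 and 3, 11, 5 and 11 of 11 adipocyte markers, 10, 3 and 9 of 11 progenitor markers and 12, 11 and 12 of 12 macrophage markers were below every HFD library on CPM. A share of all genes was not taken for single libraries on CPM of the total count. Seminal vesicle transcripts took 424127 CPM of THBru 1, which lowers its other genes on that scale. After TMM scaling, the adipocyte, progenitor and macrophage sums of THBru 1 (6442, 1193 and 622) were still below every HFD library. The lowest HFD sums were 17246, 1977 and 1939. The part of these cells in the members' levels was not tested.

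**Figure D1:**
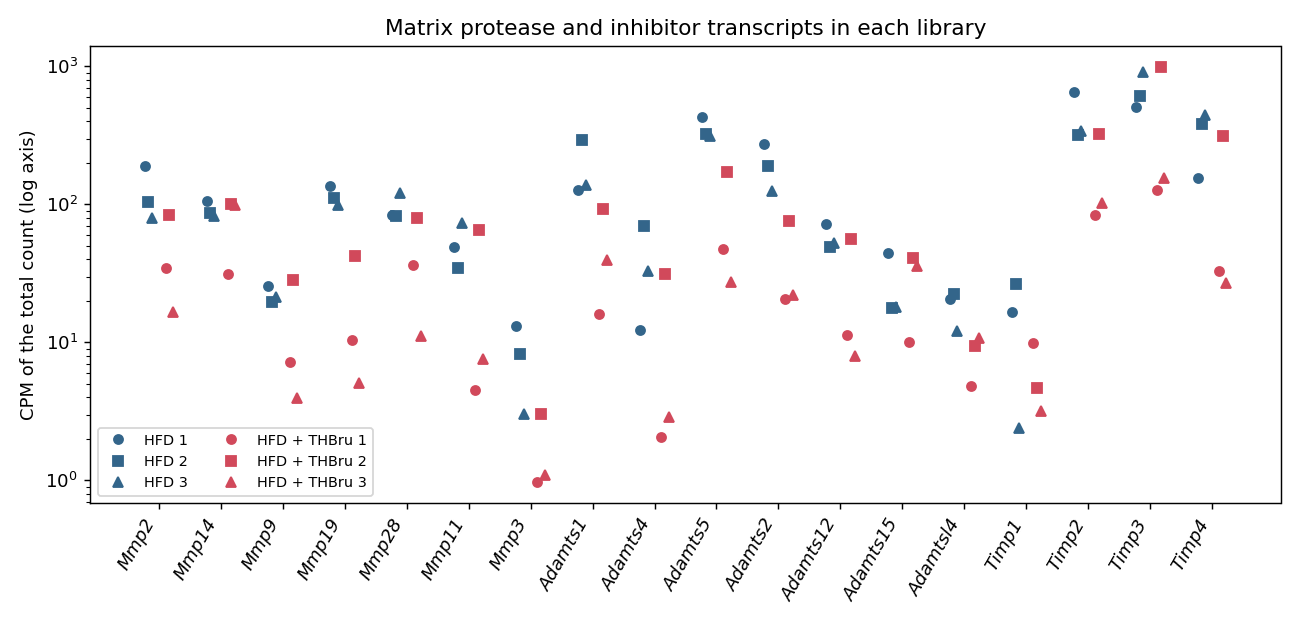
CPM of the total count (log axis) for 18 members in each of the 3 HFD (blue) and 3 THBru (red) libraries, with 1 symbol per replicate number. THBru 2 (red squares) lay near the HFD libraries for Timp3 (995 CPM), Mmp14 (100.4) and Mmp11 (65), and below all of them for Mmp19 (42.1), Adamts5 (172) and Adamts2 (76.2).

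Among the gelatinases and their activator, Mmp14 differed least. Mmp2, which encodes gelatinase A, a protease of denatured collagen and basement membrane, stood at 189, 104 and 79.3 CPM in HFD 1 to 3 against 34.4, 84.3 and 16.5 CPM in THBru 1 to 3. THBru 1 and THBru 3 were below every HFD library and THBru 2 lay within the HFD range on CPM of the total count (log2 fold change −1.32, SE 0.63; edgeR adjusted p = 0.261). After TMM scaling THBru 2 (70.8) was also just below the lowest HFD library (73.5). Mmp14, the membrane-bound collagenase that activates the Mmp2 precursor on the cell surface, stood at 106, 86.9 and 83.1 CPM in HFD against 31.3, 100.4 and 99.2 CPM in THBru (log2 fold change −0.22, SE 0.27; adjusted p = 0.627). THBru 3, which held little Mmp2, was thus at the HFD level of Mmp14, and the Mmp14 to Mmp2 ratio of FPKM was 0.316, 0.472 and 0.593 in HFD and 0.515, 0.673 and 3.4 in THBru. A ratio within a library does not depend on its scaling. Mmp9, gelatinase B, stood at 25.6, 19.6 and 21.2 CPM in HFD against 7.24, 28.1 and 3.94 CPM in THBru, so THBru 2 was the highest library on CPM of the total count, and level with HFD 1 after TMM scaling (23.6 and 23.7). Mmp15, another membrane-type enzyme, had all THBru libraries inside the HFD range on CPM, at 20.4, 11.3 and 24.1 CPM in HFD against 17.3, 20.1 and 22.1 CPM in THBru (log2 fold change 0.29, SE 0.34; adjusted p = 0.613).

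Mmp19 and Mmp3 were the metalloproteinases with the smallest p among those lower in THBru. Mmp19, a secreted protease of basement membrane proteins, stood at 136, 112 and 99.4 CPM in HFD against 10.4, 42.1 and 5.06 CPM in THBru. The groups did not overlap, and THBru 2 was also below each HFD library. The log2 fold change was −2.54 (SE 0.72; edgeR adjusted p = 0.175), and −1.61 (SE 0.27; adjusted p = 0.0695) for THBru 2 alone. Without THBru 2 it was −3.38 (adjusted p = 0.0453). Mmp19 overlaps Tmem198b, which is on the other strand and stood at 9.56 to 23.5 CPM over the 6 libraries. Mmp3, stromelysin 1, a broad protease that also activates other Mmp precursors, stood at 13.2, 8.31 and 3.05 CPM in HFD against 0.971, 3.01 and 1.09 CPM in THBru (log2 fold change −2.20, SE 0.67; adjusted p = 0.181). HFD 3 and THBru 2 were nearly level. Without HFD 3 the value was −2.60 and without HFD 1 it was −1.71.

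Mmp28, or epilysin, stood at 83.6, 82 and 120.5 CPM in HFD against 36.6, 79.4 and 11.1 CPM in THBru, with THBru 2 just under the HFD range (ratio of TMM-scaled group means 0.499; edgeR adjusted p = 0.387). Mmp11, stromelysin 3, a furin-activated enzyme, was at 48.8, 34.8 and 73.5 CPM in HFD against 4.52, 65 and 7.59 CPM in THBru. THBru 2 lay inside the HFD range and the other THBru libraries far below it (log2 fold change −1.10, SE 0.90; adjusted p = 0.47). Without THBru 2 the value was −2.81 and passed, and for THBru 2 alone it was 0.17. Mmp23 also had THBru 2 inside the HFD range, at 10.8 to 17.3 CPM in HFD against 4.27, 16.5 and 4.06 CPM in THBru. Mmp8, the neutrophil collagenase, was set by HFD 2: it stood at 1.3, 11.2 and 0.378 CPM in HFD against 0, 1.38 and 0.149 CPM in THBru. Its fold change of −3.26 (SE 1.96; adjusted p = 0.341) was −0.81 without HFD 2. Mmp8 reached the minimum for testing through the HFD group alone. The neutrophil list summed to 32, 44 and 13.8 CPM (HFD 1 to 3) against 3.91, 17.5 and 6 CPM (THBru 1 to 3). Csf3r alone made up most of this sum in HFD 1 (28.4 CPM) and HFD 3 (11.9 CPM). S100a9, Retnlg and Ngp peaked in HFD 2, the library that set Mmp8, with 8.08, 5.08 and 6.73 CPM. S100a8 was at 0 counts in THBru 1 and THBru 3. Camp was seen in HFD 2 only (33 counts), so its absence from THBru was shared by the other HFD libraries. The part of neutrophils in the Mmp8 level was not tested.

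**Figure D2:**
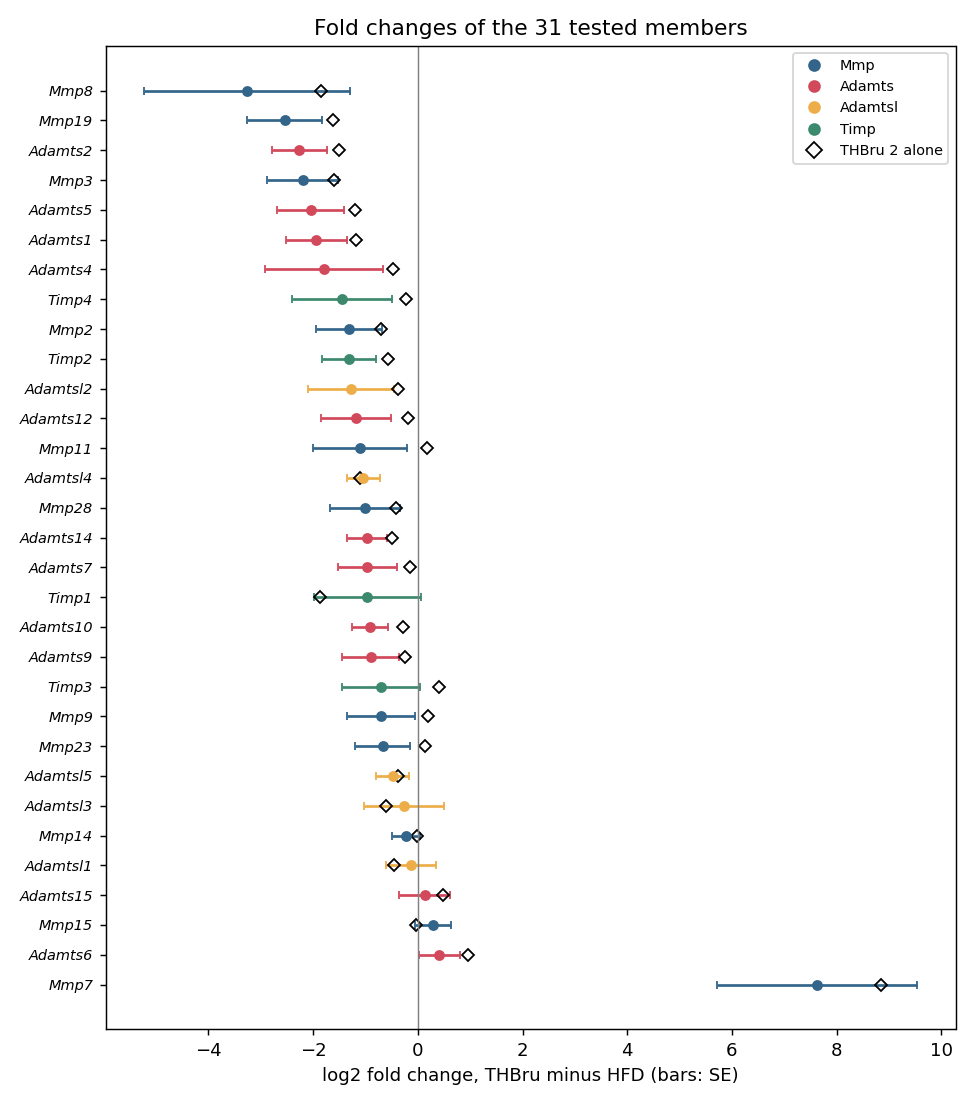
Log2 fold changes of the 31 tested members, THBru minus HFD, with standard errors from edgeR and coloured by family, ordered by size. Open diamonds give the same fit with THBru 2 as the only THBru library; their median was −0.38 against −0.97 for all libraries, with Mmp7 at 8.84 and 7.62.

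Mmp7 went the opposite way in 2 of the 3 THBru libraries. Mmp7 encodes matrilysin, a small metalloproteinase made mainly by epithelia, which activates antimicrobial peptides and sheds cell surface proteins. It stood at 0.455, 0.26 and 0.135 CPM in HFD 1 to 3 (35, 18 and 10 counts) and at 0.43, 145 and 40.6 CPM in THBru 1 to 3 (31, 9928 and 2729 counts). THBru 1 was thus at the HFD level, and the groups overlapped on CPM of the total count. The log2 fold change was 7.62 (SE 1.91; edgeR adjusted p = 0.162). It was 8.84 in THBru 2 alone (SE 0.56; adjusted p = 0.00877), beside 2.22% of all genes called in that comparison with 2.18% higher and 0.0373% lower, in a fit that assumes that the lone library varies like the HFD libraries. Because Mmp7 reached the minimum for testing through the THBru group alone (0.252 FPKM in HFD, 56.4 in THBru), it had to differ between them.

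Of 5 epithelial marker lists, the ciliated and kidney lists had the THBru libraries in the order of Mmp7. The 7 ciliated epithelium markers summed to 41.8, 35.5 and 35.2 CPM in HFD and to 10.8, 329 and 89.5 CPM in THBru, and 1, 7 and 6 of the 7 were above every HFD library in THBru 1, 2 and 3. Tekt1 was at 0 counts in THBru 1. Tppp3 alone gave 36.8, 31.3 and 32.3 CPM of the ciliated sums in HFD 1 to 3 and 7.02 CPM of that in THBru 1. Foxj1 stood at 0.149 to 0.274 CPM in HFD against 0.0416, 93.3 and 19.1 CPM in THBru 1 to 3. The 10 kidney markers summed to 11.2, 49.5 and 6.76 CPM in HFD and to 5.01, 1063 and 113 CPM in THBru, with 0, 10 and 7 of 10 above every HFD library. Lrp2 alone gave 98.9 CPM of the sum in THBru 3 and 44.8 CPM of that in HFD 2. The other kidney markers were at most 4.57 CPM in THBru 3, the value of Nphs1, which stood at 3.49 to 4.05 CPM in HFD. Slc12a1, Aqp2, Slc22a6 and Slc5a2 were at 0 counts in THBru 1, and Slc22a6 was also at 0 in THBru 3. The other lists had other orders. Seminal vesicle markers stood at 424127, 789 and 897 CPM in THBru 1 to 3 and epididymal markers at 69.7, 93.7 and 55605 CPM. General epithelium markers stood at 7.42 to 106 CPM in HFD against 1191, 469.8 and 1913 CPM in THBru 1 to 3. The part of these epithelia in the Mmp7 level was not tested.

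**Figure D3:**
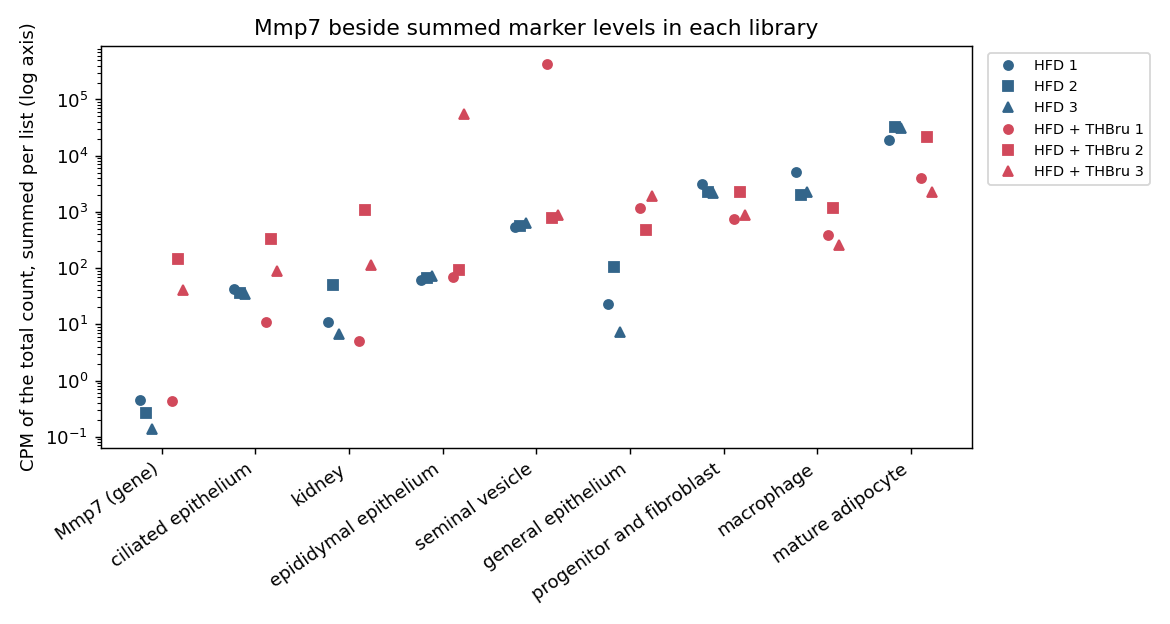
CPM of the total count (log axis) of Mmp7 and of summed marker lists in the 3 HFD (blue) and 3 THBru (red) libraries. Mmp7, the ciliated epithelium list and the kidney list were highest in THBru 2 (145, 329 and 1063 CPM), next in THBru 3 (40.6, 89.5 and 113) and low in THBru 1 (0.43, 10.8 and 5.01). In THBru 3, 1 kidney marker, Lrp2, gave 98.9 of the 113 CPM. In THBru 1, 1 ciliated marker, Tppp3, gave 7.02 of the 10.8 CPM.

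Mmp7 lies in a cluster with Mmp13, Mmp3, Mmp10, Mmp8, Mmp27 and Mmp20 on chromosome 9, at 7272514 to 7699585 in GRCm38 coordinates. The 80 bases before the annotated start of 4 of these genes are shown because they share 2 promoter motifs. Sequences are from RefSeq on GRCm38.p6, plus strand, 5′ to 3′. Capitals mark the AP-1 motif (TGAGTCA or, on the other strand, TGACTCA) and the TATA motif TATAAA on the gene's strand. The windows are chr9:7272434-7272513, chr9:7445742-7445821, chr9:7502262-7502341 and chr9:7692010-7692089, in the order printed. For Mmp10 the deposited start is 7502352, which is not next to its window. Its motif distances below are counted from the end of the window instead.
Mmp13: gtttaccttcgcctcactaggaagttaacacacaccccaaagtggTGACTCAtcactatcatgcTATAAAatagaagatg
Mmp3: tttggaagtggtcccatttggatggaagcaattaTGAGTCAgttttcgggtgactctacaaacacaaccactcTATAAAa
Mmp10: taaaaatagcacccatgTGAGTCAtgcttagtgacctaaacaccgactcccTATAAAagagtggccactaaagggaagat
Mmp7: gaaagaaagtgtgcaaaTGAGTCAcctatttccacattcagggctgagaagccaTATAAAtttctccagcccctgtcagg
The AP-1 motif began 35, 46, 63 and 63 bases before the annotated start in Mmp13, Mmp3, Mmp10 and Mmp7, and the TATA motif 16, 7, 29 and 26 bases before it. Within 250 bases before the start, 4.46% of 32851 mouse promoters held the AP-1 motif on either strand, 7.59% the TATA motif on the gene's strand and 0.481% both. Of the 33 members with a promoter in that table, the 4 printed were those holding both. Among the THBru libraries all 4 genes were highest in THBru 2 on CPM of the total count. They stood there at 145 CPM for Mmp7, 3.01 for Mmp3, 0.995 for Mmp13 and 0.337 for Mmp10. Most tested members were likewise highest in THBru 2 among the THBru libraries, so this order does not set the 4 genes apart. After TMM scaling, the highest THBru library for Mmp13 was THBru 1 instead. In THBru 2, Mmp7 was above every HFD library, as was Mmp10 with 23 counts, while Mmp3 was below each of them and Mmp13 within their range. Mmp13, collagenase 3, stood at 2.73, 0.173 and 0.986 CPM in HFD against 0.638, 0.995 and 0.536 CPM in THBru, and was not tested. A motif match describes these letters and does not show binding.

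Of the ADAMTS proteases of proteoglycans, Adamts5 and Adamts1 had all THBru libraries below HFD, and Adamts4 and Adamts15 overlapped between groups. Adamts5, the main aggrecan- and versican-cleaving enzyme in mouse, stood at 433, 322 and 311 CPM in HFD against 47.3, 172 and 27.6 CPM in THBru. All 3 THBru libraries were below all HFD libraries (log2 fold change −2.04, SE 0.64; edgeR adjusted p = 0.183), with a value of −1.19 in THBru 2 alone (adjusted p = 0.184). Adamts1, which cleaves the same class of proteoglycans and neighbours Adamts5 on chromosome 16, stood at 128, 291 and 138 CPM in HFD against 16, 92.6 and 39.4 CPM in THBru, again without overlap (log2 fold change −1.94, SE 0.58; adjusted p = 0.179). Adamts4, another enzyme of this class, stood at 12.4, 70.1 and 32.7 CPM in HFD against 2.08, 31.1 and 2.9 CPM in THBru (log2 fold change −1.79, SE 1.12; adjusted p = 0.357). Without HFD 2 its value was −0.96, and without THBru 2 it was −3.64. Adamts15, of the same class, stood at 44.1, 17.9 and 18.2 CPM in HFD against 10.1, 41.2 and 35.7 CPM in THBru, with no common direction (log2 fold change 0.13, SE 0.48; adjusted p = 0.881).

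Adamts2, the procollagen N-propeptidase that trims fibrillar procollagens, had the smallest p of all members. It stood at 274, 189 and 126 CPM in HFD against 20.6, 76.2 and 21.9 CPM in THBru, so the groups did not overlap (log2 fold change −2.26, SE 0.53; edgeR adjusted p = 0.159). The value was −1.51 in THBru 2 alone (adjusted p = 0.31) and −2.83 without THBru 2 (adjusted p = 0.038, called beside 4.56% of all genes as lower). Adamts14, a second N-propeptidase, stood at 10.1, 6.06 and 6.26 CPM in HFD against 1.94, 5.82 and 3.13 CPM in THBru (log2 fold change −0.97, SE 0.39; adjusted p = 0.213). Adamts3, the remaining one, was not tested, with 105, 114 and 16 counts in HFD against 50, 8 and 0 counts in THBru.

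The remaining tested ADAMTS genes were less uniform. Adamts10, which binds fibrillin, stood at 78.2, 58 and 75 CPM in HFD against 15.2, 63.8 and 31.4 CPM in THBru (log2 fold change −0.91, SE 0.35; adjusted p = 0.205). Adamts12 and Adamts7, both proteases of cartilage oligomeric matrix protein, had values of −1.18 (SE 0.67) and −0.96 (SE 0.56), with THBru 2 at 55.9 and 11.5 CPM inside the HFD ranges of 49 to 72.3 and 9.55 to 12.3 CPM. After TMM scaling, THBru 2 was just below the lowest HFD library for Adamts12 (46.9 against 48) and Adamts10 (53.6 against 56.8). The groups of these 2 genes thus did not overlap on that scale. Adamts9, an enzyme of versican and other matrix proteins, was at 66.5, 128 and 85.1 CPM in HFD against 11.5, 87.9 and 55.7 CPM in THBru (log2 fold change −0.90, SE 0.55). Adamts6, a close relative of Adamts10, was one of 4 tested members with a positive value: it stood at 8.55, 10.6 and 7.99 CPM in HFD against 4.06, 19.5 and 12.6 CPM in THBru (log2 fold change 0.41, SE 0.39; adjusted p = 0.538). Adamts16 came mostly from 1 library of each group, with 756, 4 and 26 counts in HFD against 0, 0 and 112 counts in THBru, or 9.82 CPM in HFD 1 and 1.67 CPM in THBru 3.

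The Adamtsl genes encode secreted relatives without a protease domain, several of which bind fibrillin microfibrils. Adamtsl4 was lower without overlap, at 20.5, 22.3 and 12.2 CPM in HFD against 4.87, 9.48 and 10.8 CPM in THBru, although HFD 3 lay close to THBru 3 (log2 fold change −1.04, SE 0.31; edgeR adjusted p = 0.178). Its value in THBru 2 alone was −1.11. Adamtsl2 stood at 11.6, 31.6 and 12.9 CPM in HFD against 1.07, 16.3 and 7.37 CPM in THBru (log2 fold change −1.28, SE 0.82; adjusted p = 0.366), and was −0.62 without HFD 2. Adamtsl5 stood at 16.9, 14.6 and 11.9 CPM in HFD against 7.88, 12.3 and 7.28 CPM in THBru (log2 fold change −0.48, SE 0.32; adjusted p = 0.377). Adamtsl1 (−0.13, SE 0.48) and Adamtsl3 (−0.26, SE 0.77) had the smallest differences of the family, and the highest library of Adamtsl3 was THBru 3 at 16 CPM.

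Of the inhibitors, Timp2 was lower in all THBru libraries once scaled by TMM, and Timp3 and Timp4 were low in THBru 1 and THBru 3 only. Timp2, which blocks Mmp2 and also takes part in its activation by Mmp14, stood at 649.6, 317 and 338 CPM in HFD against 84.4, 322 and 102 CPM in THBru. THBru 2 thus lay inside the HFD range on the total count (log2 fold change −1.31, SE 0.52; edgeR adjusted p = 0.214). Timp3, a matrix-bound inhibitor that also blocks ADAM17 and the ADAMTS proteases of aggrecan, stood at 509, 608 and 912 CPM in HFD against 128, 995 and 155 CPM in THBru. THBru 2 was the highest library on CPM of the total count, but at 836 TMM-scaled CPM it was under HFD 3 at 845 (log2 fold change −0.70, SE 0.74; adjusted p = 0.576), and its value alone was 0.41. Without THBru 2, Timp3 was at −1.90 and passed (adjusted p = 0.0485). Timp4, an inhibitor abundant in fat and heart, followed the same libraries, at 155, 383 and 442 CPM in HFD against 33, 314 and 26.9 CPM in THBru (log2 fold change −1.45, SE 0.96; adjusted p = 0.379). Without THBru 2 it was at −3.02 and in THBru 2 alone at −0.22. Timp1, a secreted inhibitor induced in injury and inflammation, varied most within HFD: it stood at 16.7, 26.5 and 2.41 CPM in HFD against 9.92, 4.71 and 3.17 CPM in THBru, with all THBru libraries inside the HFD range (log2 fold change −0.96, SE 1.03; adjusted p = 0.581). Its value was −0.23 without HFD 2 and −2.12 without THBru 1. Endothelial markers summed to 1489, 1757 and 2471 CPM in HFD against 308, 2761 and 247 CPM in THBru, with 7, 0 and 7 of 7 below every HFD library, and thus were low in the same libraries as Timp3 and Timp4. Mature adipocyte markers (4071, 21524 and 2269 CPM in THBru 1 to 3) and progenitor markers (754, 2254 and 883 CPM) were low in these libraries as well. Mural and smooth muscle markers summed to 697, 514 and 550.2 CPM in HFD against 1725, 647 and 758 CPM in THBru. Of these 7 markers, 5 were above every HFD library in each THBru library, and 2, 1 and 1 were below in THBru 1 to 3. The list was thus split. Myh11 stood at 654, 109.6 and 291 CPM in THBru against 42.8 to 69.3 CPM in HFD. Rgs5 stood at 43.2, 265 and 48 CPM in THBru against 87.3 to 238 CPM in HFD. The part of these cells in the inhibitor levels was not tested.

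Timp1, Timp3 and Timp4 each lie inside a synapsin gene on the opposite strand, as whole genes on chromosomes X, 10 and 6. Timp1 lies at 20870166 to 20874735 inside Syn1, Timp3 at 86300372 to 86349506 inside Syn3 and Timp4 at 115241892 to 115252205 inside Syn2 (GRCm38). The strand setting of the counting is not given, so reads of each pair cannot be told apart with certainty. Syn3 stood at 0.896 to 6.27 CPM and Syn2 at 2.98 to 71.2 CPM, both below their partner in each library. Syn1 stood at 9.18, 2.38 and 3.8 CPM in HFD against 0.888, 0.629 and 1.12 CPM in THBru, which in HFD 3 was above Timp1.

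Summed over each family, inhibitors and proteases kept a similar balance in HFD. The Timp genes summed to 267, 242 and 268 FPKM and the Mmp genes to 176, 130 and 137 FPKM in HFD 1 to 3, or 1.51, 1.86 and 1.95 Timp per Mmp. In THBru 1 to 3 the ratio was 1.39, 1.03 and 0.71, lower than in any HFD library. Mmp7 alone made up 0.531 of the Mmp sum in THBru 2 and 0.507 in THBru 3, as a fraction of FPKM. Without Mmp7 the ratios were 1.52, 1.86 and 1.96 in HFD and 1.4, 2.19 and 1.44 in THBru, and the groups overlapped. The Adamts genes summed to 124, 141 and 97.9 FPKM in HFD and to 16.5, 74.7 and 27 FPKM in THBru, with THBru 2 below each HFD library.

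**Figure D4:**
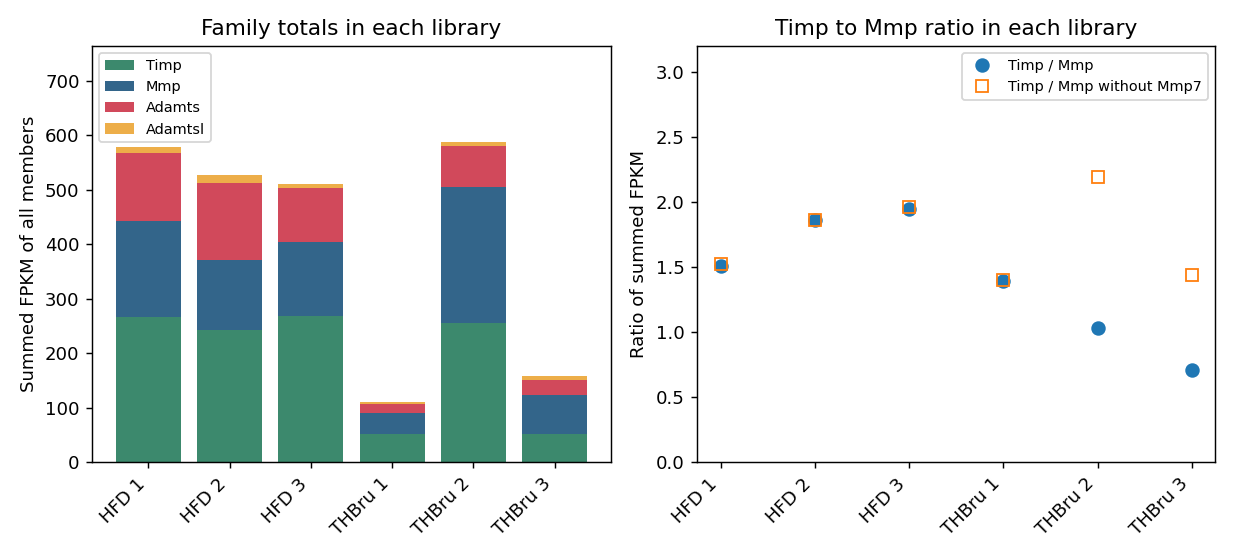
Left, summed FPKM of the members in each library, stacked by family. Right, the ratio of summed Timp to summed Mmp FPKM with Mmp7 (filled) and without it (open): THBru 2 stood at 1.03 and 2.19, against 1.51 to 1.95 and 1.52 to 1.96 in HFD.

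The members were also read against stromal content. When libraries were scaled to the summed progenitor and fibroblast markers, the median of all genes shifted to 1.09. THBru 1 and THBru 3 held 0.302 and 0.354 of the HFD mean CPM of these markers and THBru 2 held 0.903. In THBru 1 and THBru 3, 10 and 9 of the 11 markers were below every HFD library, but others were above. Dpp4 stood at 206 and 146 CPM there against 24.5 to 44.6 CPM in HFD. Pdgfra stood at 264 CPM in THBru 3 against 71.7 to 147 CPM in HFD. The scaled values depend in part on these genes. After scaling to the full list of progenitor and fibroblast markers, the median of the members was −0.13, and 20 of 31 values were negative. Relative to these markers, Mmp19 was at −1.87 (SE 0.54; edgeR adjusted p = 0.0688), Adamts2 at −1.43 (SE 0.46; adjusted p = 0.0825), Adamts5 at −1.33 (SE 0.50; adjusted p = 0.0972), Mmp3 at −1.28 and Adamts1 at −1.14. Timp2 (−0.46), Mmp2 (−0.50), Mmp28 (−0.31), Timp3 (−0.13), Timp1 (0.04) and Adamtsl4 (0.04) stood nearer to 0. Mmp7 (8.39), Adamts6 (1.34), Mmp15 (1.31), Adamts15 (1.23) and Adamtsl3 (1.04) stood on the positive side. None of the members passed in this fit, beside 3.9% of all genes called, 3.77% higher and 0.136% lower. In THBru 2, on the TMM scale, 13 of 31 members were below every HFD library (30.5% of all genes), 16 were within the HFD range and 2 above it (32.8% of all genes). In THBru 1 and THBru 3, 26 and 23 members were below every HFD library, beside 38.3% and 39.1% of all genes, and 2 and 3 were above, beside 39.1% and 42.3%. These comparisons share the HFD libraries.

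The 17 untested members had at most 9.82 CPM in any library, and 10 of them stayed under 2 CPM in all 6. Mmp17, a lipid-anchored membrane enzyme, was the only one with over 100 counts in every library, with 151, 201 and 162 counts in HFD against 461, 182 and 192 counts in THBru. Adamts20 had 0, 7 and 6 counts in HFD against 14, 181 and 86 counts in THBru, and Adamts17 had 19, 12 and 30 counts against 248, 12 and 53 counts. Adamts13, the protease of von Willebrand factor, had 15, 0 and 0 counts in HFD against 0, 5 and 46 counts in THBru. Mmp20, the enamel protease, was seen in THBru 2 only (8 counts) and Mmp21 in THBru 1 only (4 counts). Each THBru library also held transcripts of another organ, whose part in these counts was not tested.

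Genes that act with the members were read from 5 related lists. No gene of these lists passed the edgeR test, beside 0.118% of all genes. In the list of procollagen and its processing, 9 of 9 tested genes had negative values with a median of −1.90. Pcolce2, which enhances procollagen C-proteinase, stood at 53.5, 50.6 and 41 CPM in HFD against 3.3, 13.8 and 2.62 CPM in THBru (log2 fold change −2.84, SE 0.61; adjusted p = 0.147), and the collagen V gene Col5a2 at −2.30 (SE 0.57). Among proteoglycan and matricellular substrates, 10 of 12 values were negative with a median of −1.58, with Thbs1 at −2.15 and Nid1, a basement membrane linker cleaved by Adamts1, at −2.10. The fibrillin microfibril list had 10 of 11 negative values with a median of −0.77, with Mfap5 at −2.21 and Fbn1, the fibrillin that ADAMTS and ADAMTSL proteins bind, at −2.29. Membrane ADAM proteases divided into 7 negative and 5 positive values (median −0.80), with Adam8, a leukocyte protease, at 350.3, 83.3 and 148 CPM in HFD against 5.19, 43.5 and 6.88 CPM in THBru (log2 fold change −3.42, SE 0.93; adjusted p = 0.173) and Adam23 at −1.91.

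Activators and restraints of matrix proteases divided as well, with 11 of 16 negative values and a median of −0.15. Mrc2, the receptor that takes up collagen fragments, stood at 221, 431 and 85.6 CPM in HFD against 9.63, 36.2 and 13.3 CPM in THBru, lower in all THBru libraries (log2 fold change −3.62, SE 0.74; edgeR adjusted p = 0.139). Over all 16140 genes tested, the median was 0.08. On CPM of the total count, 12, 11 and 12 of 12 macrophage markers were below every HFD library in THBru 1 to 3. These markers were thus lower beside these genes, and their part was not tested.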

How the data were processed

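Poly(A) RNA of 6 white fat samples was sequenced as paired reads after dUTP second-strand marking, per the labels' protocols. The authors deposited 1 table with raw counts per gene and FPKM values, both named so per the file headers. The submitters' processing notes list cutadapt 1.9, HISAT2 2.2.1 and StringTie 2.1.6, besides DESeq2 and edgeR, and give no role. Which program counted reads, with which strand setting and on which build, is not given in the sources used here. All 48 member identifiers are in GENCODE M21 (GRCm38), 41 with the same coordinates, so coordinates are given as deposited and read as GRCm38. Summing by symbol turned 32819 rows into 32759 genes.

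THBru was compared with HFD by two-sided edgeR 4.0.16 quasi-likelihood tests (R 4.3.3, robust, TMM, total counts as library sizes) on genes with a mean of at least 0.5 FPKM, adjusted by Benjamini-Hochberg over all genes tested. The SE is the fold change divided by the square root of F. DESeq2 1.42.0, limma 3.58.1 on log2(FPKM + 0.5), other scalings, filters and left-out samples were tried. Only the main edgeR fit was tested on simulated data, with variation set from the 3 HFD libraries. Those data held no transcripts particular to single THBru libraries, so they do not show how the fit behaves with them. Intervals are not given for single libraries, and limits from 3 counts cover counting error only.

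Members given in every sample were all Timp genes, the 3 highest in HFD and up to 3 with the smallest p in each direction per other family, and those varying over 50-fold with at least 5 CPM. Other members were named after their values were seen, and of each related list the 2 genes with the smallest p. A few genes these rules take are not reported here. Members, lists and rules were chosen with earlier results of these data known.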

Additional observations from a re-analysis of the deposited data

How the results depend on the processing

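With 19 genes called over all genes and 0 members, the number of calls depended on the test and on single libraries. Leaving out 1 library gave 0 to 1552 genes, 0 to 5 members and 0 to 12 genes of the related lists; the 1552 genes and 5 members (Adamts2, Adamts10, Mmp11, Mmp19, Timp3) came without THBru 2. DESeq2 called 2773 genes, 7 members and 23 related genes. THBru 2 alone gave 357 genes, 1 member and 2 related genes, and scaling to progenitor markers 630 genes and 4 related genes. Limma called 73 genes, 118 with a pseudocount of 0.1 and 56 with 1, and total counts without TMM 53. Scaling to mature adipocyte markers called 7742 genes (48% of those tested), 4 members (Adamts6, Adamtsl3, Mmp7, Mmp15) and 13 related genes, because it moved the median of all genes to 2.56 and that of the members to 0.95. Among the 19 named and tested members, values there turned positive for Adamts1 (0.33), Adamtsl2 (1.08), Adamtsl4 (1.55), Adamtsl5 (1.71) and Mmp2 (0.30). They also did so for Mmp28 (0.69), Timp1 (1.18), Timp2 (0.54), Timp3 (0.95) and Timp4 (0.00). Of all 31 tested members, 6 had negative values there and 27 in the main fit. Scaling to progenitor markers left 20 of the 31 negative, and of the named members it turned Adamtsl4 (0.04), Adamtsl5 (0.46) and Timp1 (0.04). Of the named members, Mmp15 (−0.03) and Timp3 (0.41) changed direction in THBru 2 alone. Adamts15 ranged from −0.08 to 0.68 with a library left out. The cause of these changes was not tested unless stated. Of 342 values compared for the 19 named and tested members, 310 kept their direction and side of the threshold, 18 changed direction and 14 passed the threshold. With the replicate number as a block, 0 genes and 0 members passed. No pairing by replicate number was seen: the correlations of same-numbered deviations across 16140 genes were 0.05, −0.01 and −0.06. They cannot exclude a pairing, because each THBru library also held transcripts of another organ, which add to its deviations. At 67195085 to 76995679 counts per library, depth limits only members with a few counts, such as Mmp20 and Mmp21.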
